A study of Homo sapiens with 6 samples.

Results

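The 10 genes described here encode the 4 eIF2 kinases (EIF2AK1, EIF2AK2, EIF2AK3 and EIF2AK4), the alpha subunit of eIF2 (EIF2S1) and the subunits of eIF2B (EIF2B1 to EIF2B5). They were chosen by name, from their place in the pathway, out of 20308 genes measured, and all 10 passed the filter on low values. The RNA came from LNCaP-AI, a derivative of the prostate cancer line LNCaP that grows in the absence of androgen and is used to model castration-resistant prostate cancer (CRPC). The tested cells carried a lentiviral hairpin against METTL1, the enzyme that methylates guanosine at N7 in tRNA and other RNAs (shMETTL1, 3 libraries). The control cells carried a scrambled hairpin (shscramble, 3 libraries). Both groups were kept under androgen deprivation, carried the label of the same cell line and differed in the hairpin. The methods list a single hairpin sequence against METTL1, so an effect of that hairpin on other RNAs cannot be told apart from the loss of METTL1. The methods speak of biological replicates for the study as a whole, while the labels do not tie these libraries to separate cultures. The p-values measure the spread between these libraries.

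eIF2 is the factor that brings the initiator tRNA to the ribosome, and it has to be loaded with GTP for every round of initiation. eIF2B does the loading: EIF2B5 encodes its catalytic subunit epsilon, EIF2B3 the gamma subunit that partners it, and EIF2B1, EIF2B2 and EIF2B4 the alpha, beta and delta subunits that form its regulatory core. The kinases HRI (EIF2AK1), PKR (EIF2AK2), PERK (EIF2AK3) and GCN2 (EIF2AK4) sense haem shortage and mitochondrial stress, double-stranded RNA, unfolded protein in the endoplasmic reticulum, and stalled ribosomes or uncharged tRNA. Each of them phosphorylates eIF2 alpha on the same serine, and phosphorylated eIF2 then holds eIF2B inactive. General translation falls, while mRNAs such as ATF4 are translated more. This programme is called the integrated stress response (ISR). Phosphorylation and eIF2B activity were not measured here, only mRNA levels.

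The serine is shown because it is where the kinases and eIF2B meet. In the EIF2S1 transcript of GENCODE v29 it is codon 52 counting the initiator methionine, or residue 51 in the usual numbering, out of 315 codons. The bases around it are printed 5′ to 3′ with the serine codon in capitals.
EIF2S1: cttagtgaattaTCCagaaggcgtatc
The second sequence is the stretch around the start of EIF2AK2, the member called lower on the count scale. PKR is known as an interferon-induced gene, and the capitals mark the core of an interferon-stimulated response element (ISRE), searched as GAAANNGAA on both strands. Beside it stand the same stretches of IFI44 and DDX60, the 2 of the 4 interferon-induced genes with the smallest limma p whose promoter window held the core. The others of these 4, IFIT2 and OASL, gave no match. IFI44 and DDX60 were thus picked by their p in these data and by the core, and a link between core and change was not tested. For IFI44 the core lies on the reverse strand, so the capitals read as its complement. All are from RefSeq windows of GRCh38.p14, 250 bases before to 50 after the annotated start.
EIF2AK2: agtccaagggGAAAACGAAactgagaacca
IFI44: cacactgagtTTCAGTTTCctttctctgag
DDX60: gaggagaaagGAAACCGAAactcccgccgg
The EIF2AK2 stretch lies at chr2:37156967-37156996 on the minus strand, and its core spans bases -6 to 3 around the RefSeq start. The IFI44 stretch lies at chr1:78649762-78649791 on the plus strand, with the core at -17 to -9. The DDX60 stretch lies at chr4:168318786-168318815 on the minus strand, with the core at -53 to -45. Of the 9 members with a window, EIF2AK2 was the 1 that held the core. It was present in 8.11% of all 35116 windows and in those of 11 of the 14 interferon-induced genes that had one. The percentages here and below count windows, while members and listed genes were counted per gene, with a match in any window. A gene may have more than 1 window, so these shares are not like for like. Among these 11 were OAS3, MX1, ISG15, IFIH1 and IFI6, which edgeR did not call. Of 12 ISR target genes with a window 1 held the ISRE core, ATF5, which edgeR called higher. A core bound by C/EBP and ATF factors, TGATGNAA, was found in none of the 9 members' windows, in 3.62% of all windows and in those of 4 of 12 ISR target genes. A match describes letters in a window and not a bound site.

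Each library gave, per gene, an FPKM (the number of fragments divided by transcript length and by sequencing depth) and an estimated count. The estimated counts added up to between 3389897 and 3604835 per library, and 13196 to 13655 genes had an FPKM above 0. METTL1, the targeted gene, had 8.35, 10.5 and 8.18 FPKM in the shMETTL1 libraries, against 13.9, 18.5 and 21.0 FPKM in the shscramble libraries. The groups did not overlap. The log2 fold change of METTL1 was -0.93 (SE 0.22, limma adjusted p = 0.127) on the FPKM scale and -1.36 (SE 0.37, edgeR adjusted p = 0.0368) on the count scale. All 10 luminal prostate markers were above 1 FPKM in every library, with sums of 2097 to 2355 FPKM in shMETTL1 and 2610 to 2669 FPKM in shscramble libraries. Of these markers limma called 1 lower (KLK2, log2 fold change -1.08, adjusted p = 0.0356) and edgeR called 3 lower (KLK2, KLK3 and TMPRSS2), with 0 higher in both, and KRT18 had a log2 fold change of 0.35 on counts (edgeR adjusted p = 0.0611, DESeq2 adjusted p = 0.0435). Of the 12 measured markers of other cell types, PTPRC, CD3E, KRT5 and CHGA were at 0 in every library. CD68 and COL1A1 were above 1 FPKM in every library, COL1A1 at 4.95 to 11.2 FPKM in shMETTL1 and 7.94 to 13.5 FPKM in shscramble. In shscramble replicate 1 KRT14 had 3.70 and TP63 1.03 FPKM. SYP had 0.41, 1.10 and 0.58 FPKM in shMETTL1, against 0.28, 0.30 and 0.28 FPKM in shscramble libraries, without overlap. The list summed to 14.7 to 17.8 FPKM in shMETTL1 and 27.1 to 28.3 FPKM in shscramble libraries, a difference that came mostly from CD68 (6.08, 6.0 and 8.11 FPKM in shMETTL1, against 15.3, 11.8 and 16.8 FPKM in shscramble). The part of the markers of both lists in the results was not tested, and fewer cells of a type and less RNA per cell cannot be told apart in such libraries. Replicate 2 of shscramble stood apart: without it limma called 189 genes on FPKM instead of 15, and edgeR 1989 genes on counts instead of 712. Without any 1 of the other libraries limma called 3 to 6 genes and edgeR 270 to 443. The log2 FPKM of shscramble replicate 2 had Pearson correlations of 0.946 to 0.953 with the shMETTL1 libraries. With shscramble replicates 1 and 3 they were 0.936 and 0.945.

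EIF2AK2 was the member with the largest difference in both fits, and it was lower in shMETTL1 cells. On the count scale EIF2AK3 was higher in shMETTL1 cells, while its FPKM gave no difference. EIF2S1 and EIF2B4 lay higher in every shMETTL1 library than in any shscramble library on both scales, without passing the test. The remaining 6 members passed no test on either scale. By limma on log2(FPKM + 0.5), with p-values adjusted over 12156 genes, 0 of the 10 members were called at an adjusted p under 0.05, beside 0.123% of all genes. At an unadjusted p under 0.05 limma found 2 of 10, EIF2AK2 lower and EIF2S1 higher, beside 14.2% of all genes. DESeq2 and edgeR on the estimated counts each called 2 members. Over all genes DESeq2 called 712 of 14906 with a p-value, in either direction. In edgeR these were 1 higher, beside 2.68% of 11248 genes called higher, and 1 lower, beside 3.65% called lower. The median log2 fold change of the members was -0.07 on the FPKM scale and 0.06 on the count scale, against 0.02 and 0 over all genes tested. The median size of their FPKM change, regardless of sign, was 0.29 on the log2 scale, against 0.25 over all genes. The FPKM ranges of the groups did not overlap for 3 of 10 members, 2 higher and 1 lower, beside 19.8% of all genes. The estimated counts did not overlap for 5 of 10, 4 higher and 1 lower, beside 26.0% of all genes.

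**Figure D1:**
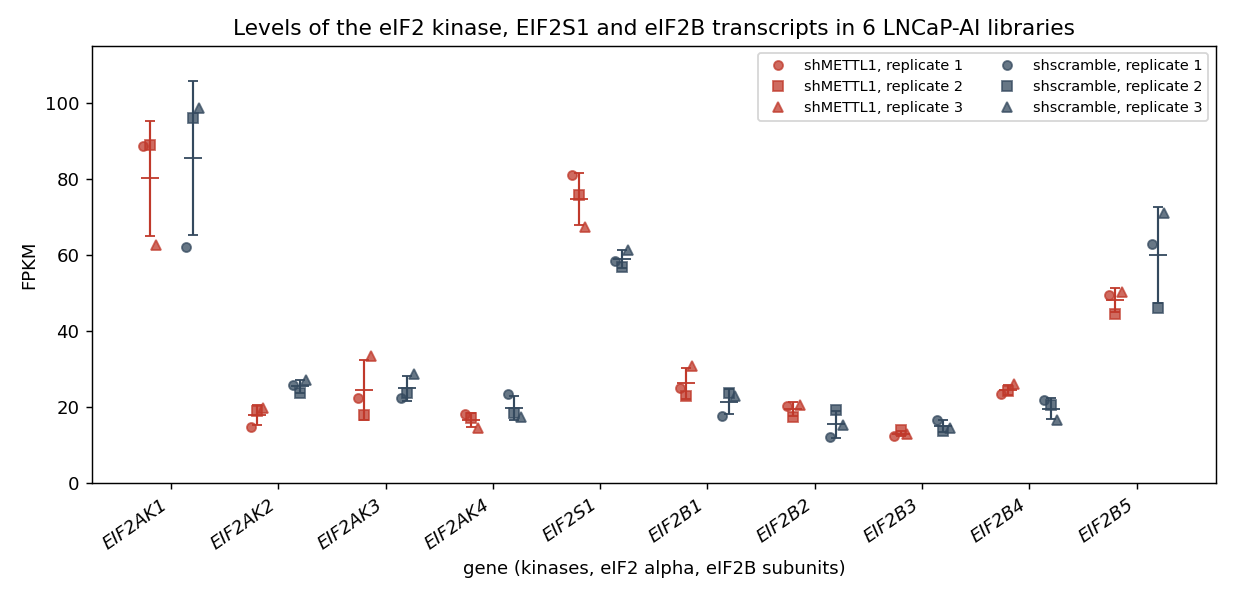
FPKM (y axis, linear) of the 10 genes (x axis) in each library. Points are libraries, with shMETTL1 in red left of shscramble in dark blue, the short line is the group mean and the bar ± 1 SD (n = 3). EIF2AK2 lies lower in all 3 shMETTL1 libraries, EIF2S1 and EIF2B4 lie higher, and the groups of the other 7 genes overlap.

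Among the kinases EIF2AK1 was the most abundant per transcript length. HRI, its product, is best known in red cell precursors and also relays mitochondrial stress to eIF2 alpha. EIF2AK1 had 88.6, 89.0 and 62.7 FPKM in shMETTL1 libraries, against 62.2, 95.9 and 98.5 FPKM in shscramble libraries. Each group held a single low library, so the ranges nearly coincided. The log2 fold change was -0.08 (95% interval -0.57 to 0.41, limma adjusted p = 0.893). It took 57.4% ± 8.0 of the summed FPKM of the 4 kinases in shMETTL1 and 54.4% ± 6.9 in shscramble libraries (SD, n = 3 each). The gene lies on chromosome 7 at 6022244 to 6059230 (GRCh38, GENCODE v29, minus strand) and shares 1591 bases with AIMP2, a scaffold of the tRNA synthetase complex, on the opposite strand. AIMP2 had 57.0 ± 1.6 FPKM in shMETTL1 and 36.3 ± 7.5 FPKM in shscramble libraries (SD, n = 3 each) and was called higher by edgeR (log2 fold change 0.59, adjusted p = 0.0287). No source used here states that the counting used strand, so reads in the shared bases cannot be assigned to either gene with certainty.

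EIF2AK2 encodes PKR, the kinase that responds to double-stranded RNA. It had 14.8, 19.0 and 19.7 FPKM in shMETTL1 libraries, against 25.8, 23.6 and 27.0 FPKM in shscramble libraries. Its estimated counts were 403, 404 and 431 in shMETTL1 libraries, against 668, 501 and 584 in shscramble libraries. All shMETTL1 libraries lay below all shscramble libraries on both scales. The log2 fold change was -0.51 (SE 0.18, 95% interval -0.91 to -0.11) on the FPKM scale, where it missed the threshold (limma adjusted p = 0.259). On the count scale it was -0.56 (SE 0.14), a level 1.48-fold lower in shMETTL1 cells, and it passed (edgeR adjusted p = 0.0230, DESeq2 adjusted p = 0.00836). By an exact permutation test (two-sided) on the mean FPKM, p was 0.1, the smallest that 3 libraries against 3 can give. The call on the count scale was lost when any 1 library except shscramble replicate 2 was left out (edgeR adjusted p = 0.0592 to 0.108), with log2 fold changes of -0.41 to -0.61. Over all genes edgeR then called 270 to 443 instead of 712. Without shscramble replicate 2 the log2 fold change was -0.70 (edgeR adjusted p = 0.0003). The gene lies on chromosome 2 at 37099210 to 37157065 (GRCh38, minus strand). At its far end 35 bases are shared with GPATCH11, a gene on the other strand that had 16.1 ± 3.3 FPKM in shMETTL1 and 27.9 ± 12.1 FPKM in shscramble libraries (SD, n = 3 each, edgeR adjusted p = 0.109).

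EIF2AK3 encodes PERK, which sits in the membrane of the endoplasmic reticulum. Its estimated counts were 261, 273 and 271 in shMETTL1 libraries, against 171, 194 and 185 in shscramble libraries. These counts stood well apart, with an SD of 6.26 in shMETTL1 and 11.4 in shscramble libraries. The log2 fold change on the count scale was 0.50 (SE 0.13), a level 1.41-fold higher in shMETTL1 cells (edgeR adjusted p = 0.0285, DESeq2 adjusted p = 0.0345). Its FPKM values, however, were 22.4, 17.9 and 33.3 in shMETTL1 libraries, against 22.5, 23.7 and 28.7 in shscramble libraries. These overlapped fully, and the log2 fold change on the FPKM scale was -0.06 (95% interval -0.59 to 0.47, limma adjusted p = 0.931). The sign of the EIF2AK3 difference therefore depended on the scale. The count-scale call was lost when any 1 library except shscramble replicate 2 was left out (edgeR adjusted p = 0.0766 to 0.116), while the log2 fold change stayed between 0.48 and 0.52. The edgeR calls over all genes then fell too, from 712 to between 270 and 443. Without shscramble replicate 2 the adjusted p of edgeR was 0.0170.

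The ratio of the 2 columns showed where EIF2AK3 differed. By the definition of FPKM, the estimated count per FPKM moves with the transcript length used for the gene. For EIF2AK3 it was 11.7, 15.2 and 8.13 in shMETTL1 libraries, against 7.61, 8.17 and 6.46 in shscramble libraries. The highest was 2.35 times the lowest, a spread reached by 4.38% of the 9629 genes with at least 20 counts in every library, whose median was 1.32. The median ratio over those genes lay between 8.74 and 9.18 in each library. For EIF2AK2 the spread was 1.28 and for the other members between 1.14 and 1.48. EIF2S1 was the 1 member of 10 whose ratios did not overlap between the groups (11.5, 11.2 and 11.95 in shMETTL1, against 12.5, 12.8 and 12.3 in shscramble), beside 10.4% of all such genes. GENCODE v29 lists 6 transcripts of EIF2AK3, of which 3 are protein-coding with lengths of 2902 to 4646 bases. The tables give 1 value per gene, and the part of single transcripts in these ratios was not tested. The gene lies on chromosome 2 at 88556741 to 88627576 (GRCh38, minus strand) and overlaps 2 antisense genes that were not matched in the tables.

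**Figure D2:**
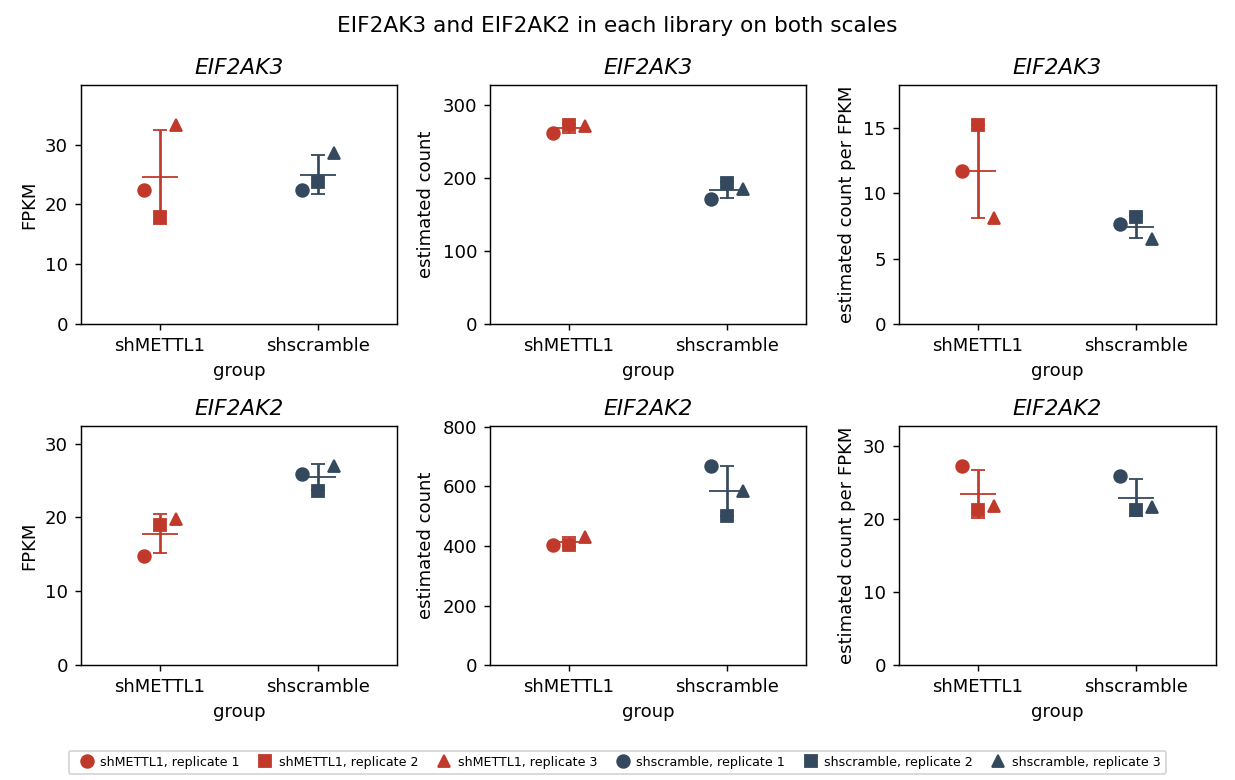
EIF2AK3 (upper row) and EIF2AK2 (lower row) in each library as FPKM, as estimated count and as estimated count per FPKM (y axes, all from 0), with shMETTL1 left of shscramble. Lines are means and bars ± 1 SD (n = 3). The EIF2AK3 counts of 261 to 273 in shMETTL1 stand above 171 to 194 in shscramble while the FPKM values overlap, whereas EIF2AK2 is lower in shMETTL1 on both scales.

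EIF2AK4 encodes GCN2, the kinase of amino acid shortage and stalled ribosomes. It had 18.1, 17.0 and 14.4 FPKM in shMETTL1 libraries, against 23.3, 18.3 and 17.4 FPKM in shscramble libraries. The ranges overlapped, and the log2 fold change was -0.24 (95% interval -0.67 to 0.18, limma adjusted p = 0.588). On the count scale it was -0.13 (SE 0.12, edgeR adjusted p = 0.564). The 4 kinases together summed to 139.0 ± 7.7 FPKM in shMETTL1 and 155.6 ± 19.6 FPKM in shscramble libraries (SD, n = 3 each). EIF2AK2 took 12.9% ± 2.5 of that sum in shMETTL1 and 16.5% ± 2.5 in shscramble libraries. The ratio of EIF2AK3 to EIF2AK2 counts was 0.65, 0.68 and 0.63 in shMETTL1 libraries, against 0.26, 0.39 and 0.32 in shscramble libraries. On the FPKM scale the same ratio was 1.52, 0.95 and 1.69 in shMETTL1, against 0.87, 1.01 and 1.06 in shscramble, and the groups overlapped. EIF2AK4 lies on chromosome 15 at 39934146 to 40035591 (GRCh38, plus strand).

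EIF2S1, the shared substrate of the kinases, had 80.9, 75.7 and 67.4 FPKM in shMETTL1 libraries, against 58.3, 56.9 and 61.4 FPKM in shscramble libraries. Its estimated counts were 933, 849 and 806 in shMETTL1 libraries, against 729, 730 and 758 in shscramble libraries. The groups did not overlap on either scale. The log2 fold change was 0.34 (SE 0.14, 95% interval 0.03 to 0.65) on the FPKM scale (limma adjusted p = 0.325) and 0.17 (SE 0.11) on the count scale (edgeR adjusted p = 0.381), so it passed neither test. EIF2S1 lies on chromosome 14 at 67359997 to 67386516 (GRCh38, plus strand). It shares 269 bases at its start with ATP6V1D, a subunit of the vacuolar proton pump on the other strand, which had 21.5 ± 5.6 FPKM in shMETTL1 and 21.2 ± 1.3 FPKM in shscramble libraries (SD, n = 3 each). The other subunits of eIF2 lay on the same side. EIF2S2, the beta subunit, had 115.7, 101.1 and 111.2 FPKM in shMETTL1, against 96.5, 96.6 and 84.4 FPKM in shscramble. EIF2S3, the gamma subunit that binds GTP, had 84.0, 75.5 and 63.8 FPKM in shMETTL1, against 49.7, 59.7 and 50.4 FPKM in shscramble. The FPKM ranges of all 3 subunits were without overlap between the groups, which held for 19.8% of all genes, and none of the 3 was called by limma or edgeR. Their sum was 258.4 ± 19.9 FPKM in shMETTL1 and 204.7 ± 8.5 FPKM in shscramble libraries (SD, n = 3 each). EIF2S3 had a log2 fold change of 0.47 (limma adjusted p = 0.243) on the FPKM and 0.34 (edgeR adjusted p = 0.0791) on the count scale, and EIF2S2 one of 0.24 (limma adjusted p = 0.442) and 0.19 (edgeR adjusted p = 0.349). CDC123, the chaperone that assembles eIF2, had 87.5 FPKM on average in shMETTL1 and 92.3 FPKM in shscramble libraries, with overlap.

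The summed FPKM of the eIF2B subunits was 131.2 ± 8.7 in shMETTL1 and 131.3 ± 8.5 in shscramble libraries (SD, n = 3 each). In both fits EIF2B1, EIF2B2 and EIF2B4, which form the regulatory core, had positive log2 fold changes, and EIF2B3 and EIF2B5, the catalytic pair, had negative ones. None of the 5 passed either test, and the differences between subunits were not tested. EIF2B4, the delta subunit, came closest: it had 23.4, 24.2 and 25.9 FPKM in shMETTL1 libraries, against 21.8, 20.4 and 16.4 FPKM in shscramble libraries. Its counts were 165, 168 and 197 in shMETTL1, against 135, 144 and 107 in shscramble. The groups did not overlap on either scale, and the log2 fold change was 0.33 (SE 0.17, limma adjusted p = 0.423) on the FPKM and 0.41 (SE 0.16, edgeR adjusted p = 0.151) on the count scale.

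EIF2B1, the alpha subunit, had 24.9, 23.0 and 30.7 FPKM in shMETTL1 libraries, against 17.5, 23.6 and 23.0 FPKM in shscramble libraries. Its counts of 222 to 253 in shMETTL1 stood just above those of 167 to 220 in shscramble, with a log2 fold change of 0.20 (edgeR adjusted p = 0.411). EIF2B2, the beta subunit, had 20.3, 17.4 and 20.6 FPKM in shMETTL1 libraries, against 12.1, 19.1 and 15.1 FPKM in shscramble libraries. Here shscramble replicate 2 lay among the shMETTL1 values, and the log2 fold change was 0.34 (95% interval -0.12 to 0.81, limma adjusted p = 0.482). EIF2B3, the gamma subunit and the least abundant member in both groups, had 12.4, 13.8 and 12.8 FPKM in shMETTL1 libraries, against 16.6, 13.8 and 14.4 FPKM in shscramble libraries. Its ranges touched, and the log2 fold change was -0.19 (95% interval -0.60 to 0.21, limma adjusted p = 0.652). EIF2B5, the catalytic epsilon subunit and the most abundant of the 5, had 49.5, 44.5 and 50.3 FPKM in shMETTL1 libraries, against 62.8, 46.1 and 71.1 FPKM in shscramble libraries. Its shscramble libraries were widely spread, and the log2 fold change was -0.29 (95% interval -0.70 to 0.11, limma adjusted p = 0.489). Its counts were nearly level at 291, 294 and 288 in shMETTL1, against 287, 267 and 317 in shscramble.

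Within the summed FPKM of eIF2B, EIF2B5 took 36.7% ± 1.1 in shMETTL1 and 45.4% ± 7.0 in shscramble libraries, with overlap (SD, n = 3 each). EIF2B4 took 17.9%, 19.7% and 18.5% in shMETTL1 libraries, against 16.7%, 16.6% and 11.7% in shscramble libraries, without overlap. EIF2B5 stood 3.72-fold above EIF2B3 in shMETTL1 and 4.02-fold above it in shscramble libraries on average, although both belong to the same complex. The ratio of EIF2S1 to the mean of the eIF2B subunits was 3.10, 3.08 and 2.40 in shMETTL1 libraries, against 2.23, 2.31 and 2.19 in shscramble libraries. These ratios are given as descriptions with no test. Per length, the order of the members in shMETTL1 cells ran from EIF2AK1 (80.1 ± 15.1 FPKM) and EIF2S1 (74.7 ± 6.8) over EIF2B5 (48.1 ± 3.1), EIF2B1 (26.2 ± 4.0), EIF2AK3 (24.6 ± 7.9), EIF2B4 (24.5 ± 1.3), EIF2B2 (19.4 ± 1.8), EIF2AK2 (17.8 ± 2.7) and EIF2AK4 (16.5 ± 1.9) down to EIF2B3 (13.0 ± 0.7; SD, n = 3 each). In that order the ranges of neighbours were apart below EIF2S1, EIF2B5, EIF2B4 and EIF2AK4, and overlapped elsewhere. In shscramble cells the order was EIF2AK1, EIF2B5, EIF2S1, EIF2AK2, EIF2AK3, EIF2B1, EIF2AK4, EIF2B4, EIF2B2 and EIF2B3, and neighbours were apart below EIF2S1 alone. EIF2AK2 thus ranked 4 of 10 in shscramble and 8 of 10 in shMETTL1 cells. Its range overlapped those of EIF2B2 and EIF2AK4 in shMETTL1 cells. In shscramble cells it overlapped that of EIF2AK3 below it and not that of EIF2S1 above it.

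**Figure D3:**
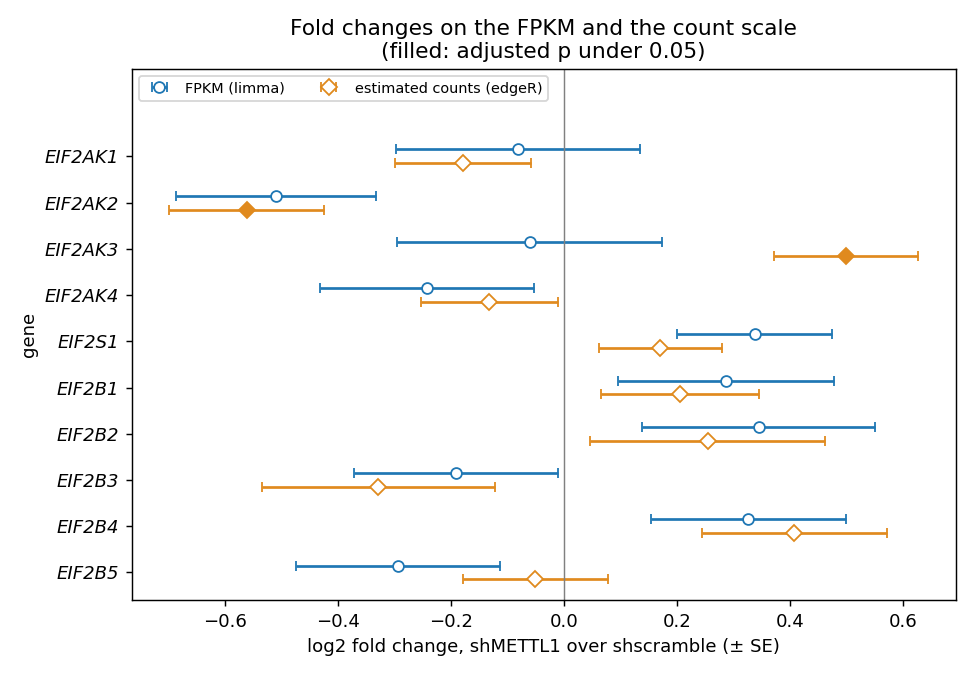
Log2 fold change of each member, shMETTL1 over shscramble (x axis, ± SE), from FPKM by limma (blue circles) and from estimated counts by edgeR (orange diamonds). Filled symbols have an adjusted p under 0.05: EIF2AK2 at -0.56 and EIF2AK3 at 0.50, both on the count scale. EIF2AK3 is the 1 member whose sign differs between the scales.

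In the genome the eIF2B genes are scattered, at chromosome 12, 123620406 to 123633766 (EIF2B1, minus strand), chromosome 14, 75002911 to 75012366 (EIF2B2, plus strand), chromosome 1, 44850522 to 44986722 (EIF2B3, minus strand), chromosome 2, 27364352 to 27370486 (EIF2B4, minus strand) and chromosome 3, 184135038 to 184146112 (EIF2B5, plus strand), all in GRCh38. Of the 10 members, 3 start within 1000 bases of a protein-coding gene that runs the other way, beside 11.2% of 19951 protein-coding genes. EIF2B4 starts 10 bases from SNX17, a gene of endosomal recycling. SNX17 had 23.0 ± 2.9 FPKM in shMETTL1 and 13.5 ± 1.3 FPKM in shscramble libraries (SD, n = 3 each), and edgeR called it higher (log2 fold change 0.71, adjusted p = 0.0252). EIF2B1 starts 27 bases from GTF2H3, a subunit of the transcription factor TFIIH, which had 25.5 ± 4.7 FPKM in shMETTL1 and 28.1 ± 3.8 FPKM in shscramble libraries. At its other end EIF2B1 shares 536 bases with the helicase gene DDX55 (38.3 ± 7.4 FPKM in shMETTL1 and 42.0 ± 11.0 FPKM in shscramble libraries). The third pair, EIF2S1 and ATP6V1D, is given above.

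The genes that act on the kinases and on phosphorylated eIF2 alpha were examined from lists. These lists and those below were set with earlier results of these data known. Over all genes tested edgeR called 2.68% higher and 3.65% lower, and limma called 0.123% in either direction, shares that stand beside the counts of each list. Of 10 kinase regulators, limma called 0 and edgeR 2, both higher. DNAJC3, an inhibitor of PERK and PKR, had 25.1, 22.2 and 25.6 FPKM in shMETTL1 libraries, against 13.9, 18.4 and 14.0 FPKM in shscramble libraries (log2 fold change 0.60 on counts, edgeR adjusted p = 0.00481). HSPA5, the chaperone BiP that keeps PERK inactive, had 250.9, 225.9 and 307.7 FPKM in shMETTL1 libraries, against 149.0, 219.5 and 177.5 FPKM in shscramble libraries (log2 fold change 0.48 on counts, edgeR adjusted p = 0.0477). Both were higher in all 3 shMETTL1 libraries. The number called by edgeR was 1 without any library other than shscramble replicate 2, and 3 without that one. NCK1, an adaptor that works with the eIF2 alpha phosphatase, had a log2 fold change of 0.45 on FPKM (limma adjusted p = 0.307) and 0.08 on counts (edgeR adjusted p = 0.832). OMA1, the mitochondrial protease upstream of HRI, had one of -0.49 on FPKM (limma adjusted p = 0.357) and -0.48 on counts (edgeR adjusted p = 0.117). The 5 phosphatase genes gave 0 calls in limma and edgeR, with a median log2 fold change of 0.05 on FPKM. PPP1R15B, the constitutive regulatory subunit, had 33.2 FPKM in shMETTL1 and 34.9 FPKM in shscramble libraries on average, and PPP1R15A (GADD34), the stress-induced one, 7.35 FPKM in shMETTL1 and 8.21 FPKM in shscramble libraries. The catalytic subunits PPP1CB and PPP1CC had log2 fold changes of 0.36 (limma adjusted p = 0.370) and 0.10 (limma adjusted p = 0.824) on FPKM.

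Of the 10 factors that handle the initiator tRNA beside eIF2, edgeR called 1 and limma 0. The number called by edgeR was 2 without shscramble replicate 1 and 4 without shscramble replicate 2, and DESeq2 called 2. EIF5B, the GTPase that joins the ribosomal subunits after eIF2 has left, fell. It had 28.4, 28.4 and 34.7 FPKM in shMETTL1 libraries, against 72.8, 41.2 and 61.7 FPKM in shscramble libraries. The log2 fold change was -1.05 (SE 0.20, edgeR adjusted p = 0.00483) on counts and -0.90 (SE 0.22, limma adjusted p = 0.133) on FPKM. EIF1 and EIF5, which act in start codon choice, and BZW2, a mimic of eIF5, had log2 fold changes of 0.33, 0.30 and 0.28 on FPKM (limma adjusted p = 0.351, 0.371 and 0.399). BZW1, another mimic of eIF5, had a log2 fold change of 0.39 on counts, which passed by DESeq2 (adjusted p = 0.0317) and not by edgeR (adjusted p = 0.0512), and of 0.08 on FPKM (limma adjusted p = 0.848).

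For ATF4 and genes downstream of it the values lay mainly on one side. ATF4 itself is in the list below and among the genes that edgeR called higher. It had 670.1, 675.1 and 637.0 FPKM in shMETTL1 libraries, against 488.0, 422.6 and 475.0 FPKM in shscramble libraries. Its log2 fold change was 0.45 on counts (edgeR adjusted p = 0.0272) and 0.52 on FPKM (limma adjusted p = 0.114). Of 13 ISR target genes, a list set with earlier results of these data known, edgeR called 11 higher and 0 lower, beside 2.68% and 3.65% of all genes. Limma called 0, with 11 higher at an unadjusted p under 0.05, beside 14.2% of all genes in either direction. The median log2 fold change of the list was 0.75 on FPKM and 0.76 on counts. TRIB3, a pseudokinase induced by ATF4 and CHOP, had 45.9, 48.3 and 48.6 FPKM in shMETTL1 libraries, against 20.6, 27.1 and 15.9 FPKM in shscramble libraries (log2 fold change 1.14 on counts, edgeR adjusted p = 0.000389). SESN2, a leucine sensor of the mTORC1 pathway, had 14.1, 14.4 and 14.7 FPKM in shMETTL1 libraries, against 2.94, 6.75 and 3.91 FPKM in shscramble libraries (log2 fold change 1.63 on counts, edgeR adjusted p = 0.000325). DDIT3, which encodes CHOP, and DDIT4, an inhibitor of mTORC1, had log2 fold changes of 1.15 (edgeR adjusted p = 0.00727) and 0.61 (edgeR adjusted p = 0.00445) on counts. Over the whole list all shMETTL1 libraries stood above all shscramble libraries for 11 of 13 genes on both scales, and ATF3 and NUPR1 overlapped. Over all genes the groups did not overlap, in either direction, for 19.8% on FPKM and 26.0% on counts. The number called by edgeR was 7 without any 1 of the shMETTL1 libraries and 6 without shscramble replicate 3. Limma called 5 of the list without shscramble replicate 2. PPP1R15A, the stress-induced phosphatase subunit, was counted in the phosphatase list and not here. Its log2 fold change was -0.09 on FPKM (limma adjusted p = 0.922) and -0.24 on counts (edgeR adjusted p = 0.669).

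In the other branches of the unfolded protein response (UPR), edgeR called 5 of 10 genes higher and 0 lower, and DESeq2 called 5 higher and 1 lower. Limma called 0, and 2 without shscramble replicate 2. HERPUD1, a component of the disposal of unfolded protein, had a log2 fold change of 0.88 (edgeR adjusted p = 0.000325) on counts. DNAJB9, a co-chaperone of BiP, had one of 1.26 (edgeR adjusted p = 0.00117). XBP1, the transcription factor spliced by IRE1, had one of 0.73 (edgeR adjusted p = 0.00147), and HYOU1, a chaperone, one of 0.62 (edgeR adjusted p = 0.0221). HSP90B1, the chaperone GRP94, had 641.4, 562.1 and 720.3 FPKM in shMETTL1 libraries, against 756.7, 791.8 and 782.0 FPKM in shscramble libraries. It lay on the lower side without overlap, with a log2 fold change of -0.40 on counts that passed by DESeq2 (adjusted p = 0.00337) and not by edgeR (adjusted p = 0.0515). PDIA4, a disulfide isomerase, had one of -0.24 (edgeR adjusted p = 0.226).

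Among the interferon-induced genes, a class that includes EIF2AK2 although the list left it out, the called ones were lower. Of the 18 listed, 15 were tested by limma and 2 called lower, and 14 were tested by edgeR and 6 called lower, with 0 higher in both. The median log2 fold change was -0.66 on FPKM and -1.01 on counts. For EIF2AK2 it was -0.51 and -0.56. IFI44, DDX60 and OAS1 averaged 0.30, 0.19 and 0.43 FPKM in shMETTL1, against 9.59, 2.29 and 1.54 FPKM in shscramble libraries. They passed the filter of 0.5 FPKM through the shscramble libraries. The medians and calls of the list rest in part on such genes near the floor, and EIF2AK2 cannot be judged against them. IFI44 had 0, 0.29 and 0.62 FPKM in shMETTL1 libraries, against 9.07, 8.83 and 10.9 FPKM in shscramble libraries (limma adjusted p = 0.00784). IFIT2, which binds foreign RNA, had 1.04, 1.25 and 0.81 FPKM in shMETTL1 libraries, against 5.76, 5.84 and 8.39 FPKM in shscramble libraries (limma adjusted p = 0.0432). OASL had 1.17, 1.55 and 0.47 FPKM in shMETTL1 libraries, against 5.80, 7.94 and 8.22 FPKM in shscramble libraries (edgeR adjusted p = 0.000389). DDX60 had 0.05, 0.08 and 0.44 FPKM in shMETTL1 libraries, against 1.77, 3.10 and 2.01 FPKM in shscramble libraries (edgeR adjusted p = 0.00014). In contrast, STAT2, IRF9, IFIH1, ISG15 and IFI6 were not called by either tool. Limma called 0 to 3 of the list when 1 library was left out, with 0 without shscramble replicate 1 or 3 and 1 without any shMETTL1 library.

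**Figure D4:**
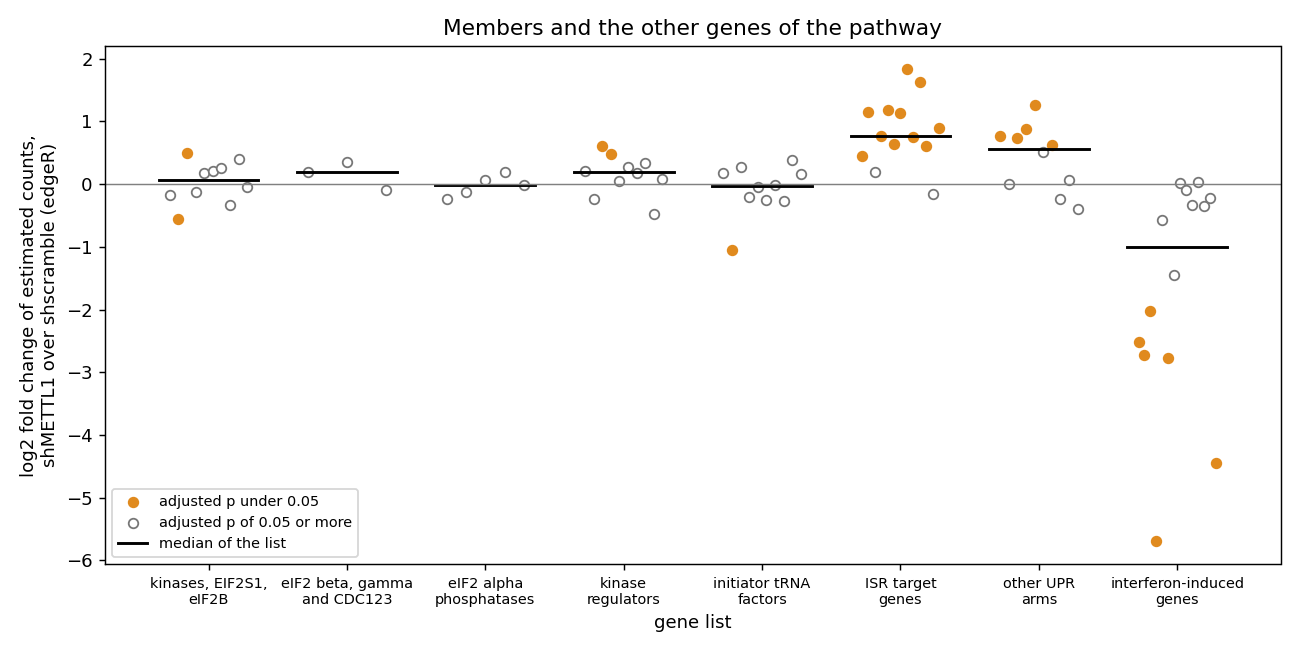
Log2 fold change of estimated counts, shMETTL1 over shscramble (y axis, edgeR), for the 10 members and 7 lists of pathway genes (x axis). Each point is a gene, filled orange where the adjusted p is under 0.05, and the black line is the median of the list. The members lie around 0 (median 0.06), with EIF2AK3 and EIF2AK2 called in opposite directions, while the ISR targets lie above (0.76) and the interferon-induced genes below (-1.01).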

How the data were processed

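LNCaP-AI RNA was sequenced in 3 shMETTL1 and 3 shscramble libraries. The submitters' notes name cutadapt 1.9.3, HISAT2 2.0.4, Cufflinks, Cuffdiff and hg19, without role or order. The authors deposited, per gene and library, an FPKM value, which is relative to transcript length and depth, and an estimated count. The estimated counts deposited are mostly fractional (whole within 0.001 for 1.80% to 2.51%), and how they were scaled between libraries is not given in the sources used here, so totals (highest over lowest 1.06) give no depth, and no counting interval was computed.

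Genes whose FPKM averaged 0.5 or more were tested with limma 3.58.1 (trend, robust) in R 4.3.3 on log2(FPKM + 0.5), a scale that understates changes of low genes. Estimated counts, rounded to whole numbers, were analysed by edgeR 4.0.16 (quasi-likelihood, TMM) and DESeq2 1.42.0 as alternatives. P-values were two-sided, adjusted by Benjamini-Hochberg over all genes tested, and called under 0.05. Both fits were tested on simulated data. Symbols were matched for 19434 of 20308 identifiers (95.7%). Coordinates and transcripts came from GENCODE v29 (GRCh38), promoters from RefSeq, which held a window for 9 members (not EIF2AK1). The tables carry no coordinates. The members, METTL1 and up to 4 genes per list with the smallest limma p were named, and genes sharing a locus with a member were added. KRT18, KLK3, TMPRSS2, BZW1, HSP90B1, PDIA4, ATF3, NUPR1, STAT2, IRF9, IFIH1, ISG15, IFI6, GTF2H3 and SNX17 were named after values were seen. The same holds for PTPRC, CD3E, KRT5, CHGA, TP63, SYP, OAS1, OAS3, MX1, ATF4 and ATF5. Members and lists were chosen with earlier results of these data known. Other settings tried were the pseudocount, the filter, the scaling, a replicate block, limma on log2 CPM (prior count 2) and leaving out each library.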

Additional observations from a re-analysis of the deposited data

How the results depend on the processing

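Under other pseudocounts, filters and scalings of FPKM, and at an unadjusted p under 0.05 with a fold above 1.5, limma called 0 members, as with each library left out (0 to 0). On the count scale 2 members were called by edgeR, by DESeq2 and by limma on log2 CPM. The number called by edgeR lay between 0 and 2 with 1 library left out, with 0 for each library except shscramble replicate 2. Over all genes edgeR called 712 with all libraries and 1989 without shscramble replicate 2. Without any 1 of the others it called 270 to 443 genes. The replicate numbers did not pair the samples (correlations of deviations 0.002, 0.053 and -0.024 for equal numbers), and with the replicate block 0 members were called on FPKM and 2 on counts. The median log2 fold change of the members was 0.059 by edgeR, 0.063 by DESeq2 and 0.062 by limma on log2 CPM, and ran between -0.116 and 0.038 with 1 library left out. METTL1 passed the threshold by edgeR (-1.36), DESeq2 (-1.37) and limma on log2 CPM (-1.36), and ran between -1.09 and -0.80 on FPKM with 1 library left out. The FPKM sign of EIF2AK3 turned by edgeR (0.50), DESeq2 (0.50) and limma on log2 CPM (0.49), and lay between -0.30 and 0.14 with 1 library left out. EIF2AK1 lay between -0.30 and 0.084 on FPKM, and EIF2B5 between -0.15 and 0.018 on counts, with 1 library left out. The causes were not tested. With 3 libraries a group, small differences could not be seen. Even EIF2AK2 and EIF2S1, whose unadjusted 95% intervals on FPKM did not include 0, were not called by limma after adjustment.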
